A study of Mus musculus with 6 samples.

Results

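The genes described here are the 60 translation initiation and elongation factor genes of a bulk RNA-seq table of 11452 genes from 4T1 cells, a mouse mammary carcinoma cell line. Members were the rows whose symbol began with Eif1 to Eif6 or with Eef1 or Eef2, plus Pabpc1, Pabpc4 and Tpt1. Eif2ak kinases, Eif4ebp genes and pseudogene names were left out. The study compared Myosin 1e knockout (KO) cell pools with wild-type (WT) cell pools, 3 libraries of each. The labels give no other treatment, and how the knockout was made is not stated in them. The deposited columns carry the numbers 1, 2 and 4 within each genotype, and each library has its genotype and number as its name in what follows (KO 4, WT 4, KO 1, KO 2, WT 1, WT 2). The sample titles count the pools from 1 to 3, so for columns with the number 4 the genotype is known and the pool is not. Nothing says whether the pools of a genotype came from separate edited populations, so p-values measure only the spread between these libraries.

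Translation begins when initiation factors load the initiator tRNA and the small ribosomal subunit onto an mRNA. eIF2 carries the initiator tRNA and is recharged with GTP by eIF2B. The eIF4F complex (the cap-binding protein eIF4E, the scaffold eIF4G and the helicase eIF4A) recruits the mRNA, and the multi-subunit eIF3 binds the small subunit. eIF1, eIF1A, eIF5 and eIF5B act in start codon choice and subunit joining. In elongation, eEF1A delivers aminoacyl-tRNAs and is recharged by the eEF1B subunits, eEF2 moves the ribosome along the mRNA, and eIF5A helps where peptide bonds form slowly. mRNAs of elongation factors, ribosomal proteins and a few other factors are known as TOP mRNAs (terminal oligopyrimidine). Their transcription starts at a C followed by an unbroken run of C and T, and their translation responds to mTORC1 through this run.

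Recovered read totals lay between 17772003 (KO 2) and 19988206 (KO 1). All 10 epithelial and mammary carcinoma markers looked for were in the table. Their summed level was 3772 CPM (read counts scaled to a common library size) in KO 4 and 4057 CPM in WT 4, against 4562 to 5319 CPM in the other 4 libraries. The markers did not go one way: in limma 4 were higher in the libraries numbered 4 (Esrp1 by 1.34, Cldn4 by 0.89, Epcam by 0.46 and Cdh1 by 0.36) and 5 were lower. None of 10 leukocyte or 6 endothelial markers was listed. Of 9 fibroblast markers 2 were listed, Pdgfra and Postn, with a summed level of 29.9 to 76.8 CPM, and no collagen of that list was. Myo1e itself had 6.81, 6.87 and 6.81 log2 CPM in KO 4, KO 1 and KO 2, against 6.91, 7.09 and 7.02 log2 CPM in WT 4, WT 1 and WT 2. Each KO value was below every WT value, but the difference of -0.18 (SE 0.09) did not pass in limma over all genes (Benjamini-Hochberg adjusted p = 1.00, and 0.316 with the replicate block). A transcript level does not by itself check a knockout whose edited position is not known. The libraries numbered 4 stood apart in both genotypes: 65.6% of the 11269 genes tested differed between them and the other 4. The labels do not say what sets these columns apart, and the split was known before the members were chosen. In bulk libraries, fewer cells with a transcript and less of it per cell cannot be told apart.

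Promoter sequences were available for 48 of the 60 members (RefSeq, build GRCm38.p6). The starts printed next are shown because the C and T run is what makes an mRNA a TOP mRNA. Each window runs 5′ to 3′ on the gene's strand, from 15 bases before the annotated start to 20 bases from it. Capitals mark each run of 5 or more bases of C and T that begins with C within 20 bases of the start.
Eef1a1 (chr9:78481705-78481739, minus strand): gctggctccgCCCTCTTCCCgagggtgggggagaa
Eef2 (chr10:81176616-81176650, plus strand, run going on past the window): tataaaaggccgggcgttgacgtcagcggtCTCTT
Eif3f (chr7:108934400-108934434, plus strand, with a first run begun before the window): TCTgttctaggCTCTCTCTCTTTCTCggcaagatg
Eif4b (chr15:102073758-102073792, plus strand): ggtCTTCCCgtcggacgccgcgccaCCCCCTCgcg
Eif1 (chr11:100319934-100319968, plus strand): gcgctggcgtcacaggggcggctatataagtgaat
Eif4a1 (chr11:69672404-69672438, minus strand): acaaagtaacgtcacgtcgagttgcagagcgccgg
Eif4g1 (chr16:20672712-20672746, plus strand): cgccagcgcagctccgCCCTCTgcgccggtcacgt
Eif3b (chr5:140419290-140419324, plus strand): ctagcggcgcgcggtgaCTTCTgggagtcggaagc
Eef1a1, Eef2, Eif3f and Eif4b are known as TOP mRNAs, and the other 4 are initiation factors not listed as such. At the annotated base itself, a C followed by at least 4 bases of C or T stood in 2 of 48 members (4.17%), against 3.01% of the 27025 genes with a promoter. Within 5 bases of the start such a run stood in 10 of 48 members (20.8%), against 21.2% of all. Within 20 bases it stood in 43.8% of members, against 53.3% of all. Of 7 listed TOP genes with a promoter, 1 held a run at the start, 2 within 5 bases and 5 within 20 bases. That list includes Eef1a2, which is not among the 60 members. Of the members on it, Eef1a1, Eef2, Eif3f and Eif4b held a run within 20 bases, and Eef1b2 and Tpt1 did not. Annotated starts alone thus did not set the TOP mRNAs apart. The start used in these cells is not measured here.

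The letters CACGTG, the palindromic E-box, which reads the same on both strands, were found in a minority of members. CACGTG was present between 250 bases before and 50 bases after an annotated start in 14 of 48 members (29.2%). The share was 8.09% of all genes with a promoter and 12.2% of the 9071 genes of the expression table that have one. Among genes with only 1 annotated start it was 11 of 42 members (26.2%) and 7.12% of all. The 30-base stretches that follow, with CACGTG in capitals, come from members of these 14 that differed strongly between libraries in either direction.
Eef2 (chr10:81176576-81176605, plus strand): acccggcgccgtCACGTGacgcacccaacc
Eif4g1 (chr16:20672661-20672690, plus strand): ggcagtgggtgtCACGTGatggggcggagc
Eif4a1 (chr11:69672595-69672624, minus strand): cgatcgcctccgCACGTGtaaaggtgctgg
Eif5a2 (chr3:28781148-28781177, plus strand): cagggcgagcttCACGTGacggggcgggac
The match did not go with 1 direction of change. Of the 14 members with CACGTG, 4 were called higher and 7 lower in the libraries numbered 4 (median log2 difference -0.12). Of the 34 without it, 10 were called higher and 18 lower (median -0.20). TGACGTCA, the palindromic cAMP response element, stood in 1 member (2.08%, against 2.03% of all and 3.83% of the genes of the expression table), Eef2, inside the start window printed for it. TATAAA, searched on both strands, stood in 10.4% of members, against 15.7% of all but 8.15% of the genes of the expression table. A match of letters is a description and not a binding site.

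The factors spanned a wide range of levels. Per kilobase of exon, Eef1a1 was the most abundant member, with a mean of 4568 RPKM over KO 4 and WT 4 and of 3922 RPKM over the other 4 libraries. Eef2 followed with 2062 and 1420 RPKM in the same order, and Tpt1, which encodes the growth-related protein TCTP, with 1013 and 723 RPKM. Among the initiation factors, Eif4a1 stood at 240 and 383 RPKM and Eif4g1 at 145 and 251 RPKM. The eEF2 kinase gene Eef2k was the lowest member by its mean over 6 libraries, with 4.41 and 3.36 RPKM.

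All 60 members together took 4.53% of the reads in KO 4 and 4.74% in WT 4, against 4.19%, 4.30%, 4.10% and 4.32% in KO 1, KO 2, WT 1 and WT 2. The 5 elongation factors took 2.10% and 2.20% of reads in KO 4 and WT 4, against 1.59% to 1.69% in the other 4 libraries. The 36 genes of the initiation complexes took 1.36% and 1.39% in KO 4 and WT 4, against 1.41% to 1.44% in the others. In both libraries numbered 4, then, the summed read share of elongation factors was larger and that of initiation complexes smaller, without overlap with the other 4 libraries. Most elongation factor reads were those of Eef1a1 (226878 and 222622 in KO 4 and WT 4) and Eef2 (140729 and 130176). Eef1b2, Eef1g and Eef1d had 18500, 20258 and 4005 reads in KO 4 and 19145, 20471 and 4028 in WT 4. Eef1d and Eef1g were called lower there, so the sum does not describe each elongation factor.

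In the libraries numbered 4, most initiation factor transcripts were lower, and the elongation factors were split. Of the 60 members, 15 were higher and 34 lower there by limma on log2 CPM with a term for genotype, at a Benjamini-Hochberg adjusted p under 0.05 over all genes. Of all 11269 genes, 31.8% were higher and 33.8% lower by the same rule, so the members' share called higher (25.0%) was below the background and their share called lower (56.7%) above it. The median log2 difference of the members was -0.23, against 0.00 for all genes. Both libraries numbered 4 lay above all 4 others for 18 members and below them for 35, against 35.8% and 37.0% of all genes. Without WT 4, the count of members called higher dropped to 7. Quantile normalization moved the members' median to -0.08, and scaling by library totals, added after seeing the data, put it at -0.12 while moving that of all genes to 0.11.

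**Figure D1:**
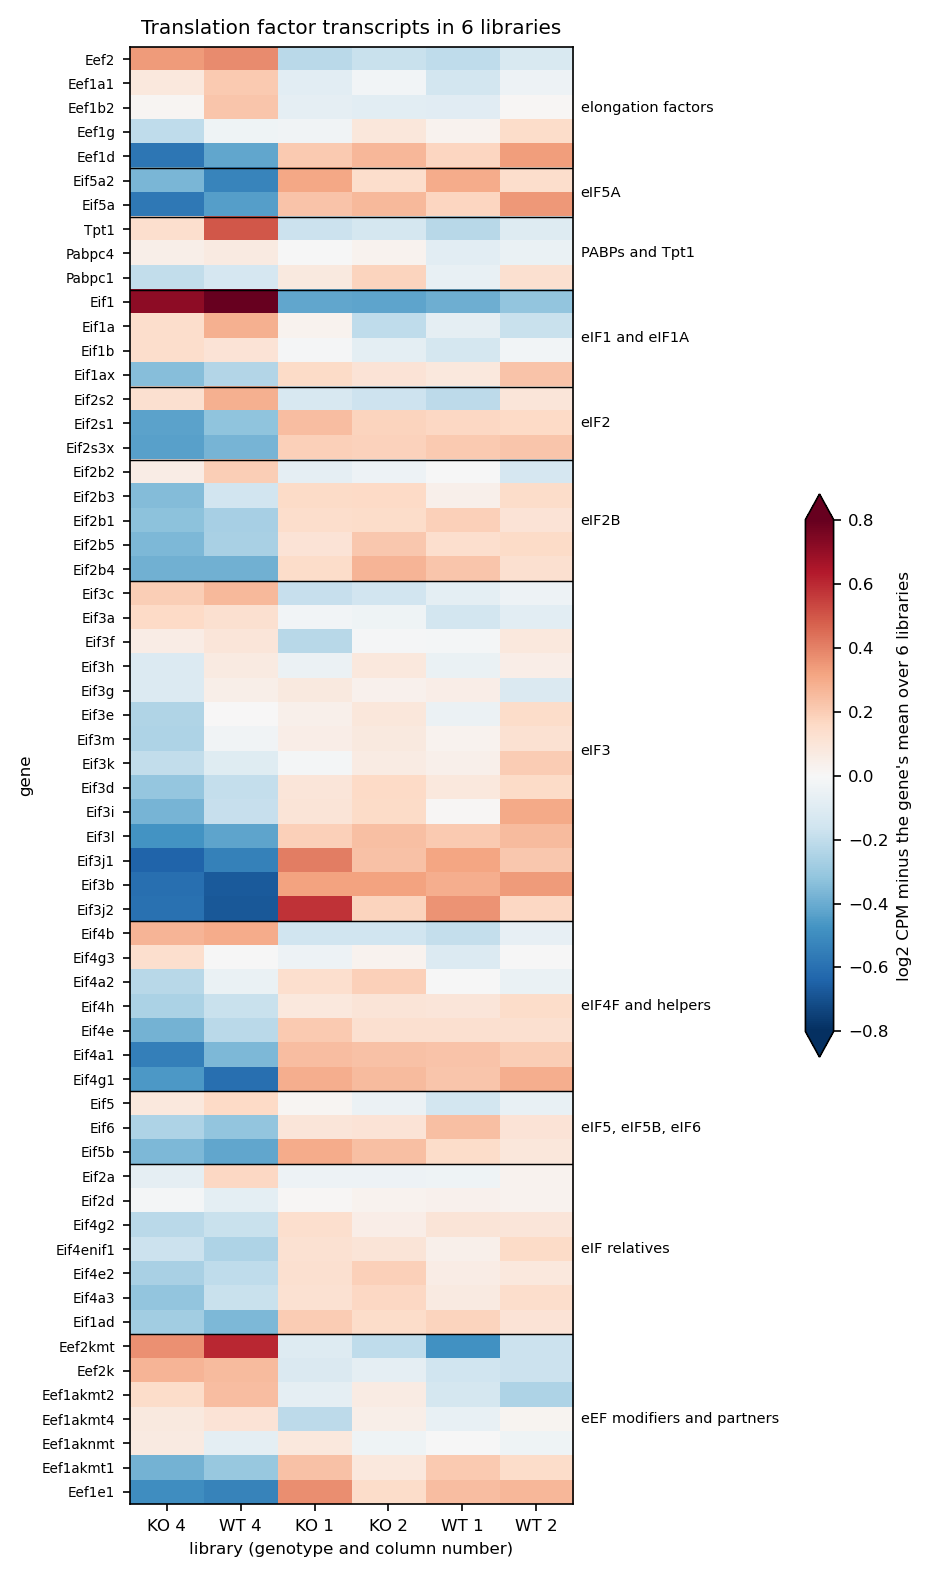
Each row is 1 of the 60 genes, grouped by role, and each column a library. Colour is log2 CPM minus the gene's mean over the 6 libraries, and values past 0.8 take the end colour. The columns KO 4 and WT 4 look alike and differ from the other 4, with 35 genes below and 18 above all 4 of them.

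Among the 5 elongation factors, Eef2 had the largest rise and Eef1d the largest fall. Eef2 (chr10:81176631-81182498), the translocase, had 12.72 log2 CPM in KO 4 and 12.76 in WT 4, against 12.17, 12.21, 12.18 and 12.26 in KO 1, KO 2, WT 1 and WT 2. Both libraries numbered 4 were above all others, by 0.54 on the log2 scale (SE 0.08, limma adjusted p = 3.6e-04), or 1.45-fold. Eef1a1, which delivers aminoacyl-tRNA, had 13.41 and 13.54 log2 CPM in KO 4 and WT 4, against 13.24, 13.31, 13.18 and 13.29 in KO 1, KO 2, WT 1 and WT 2. The libraries numbered 4 held its 2 highest values, but the difference of 0.22 (SE 0.10) did not pass in limma (adjusted p = 0.090). It passed with library totals (adjusted p = 0.0093), with limma voom on recovered reads (0.019) and with the length and GC correction (0.048). It did not pass with median centring (0.20, limma adjusted p = 0.12), and with quantile normalization the difference was 0.00 (limma adjusted p = 1.00), since that method gives the most abundant gene, Eef1a1 in every library, a common value. Of the distinct 50-base stretches of the Eef1a1 transcripts, 39.4% also occur in other genes, so its counts depend on how shared reads were treated.

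The 3 subunits of eEF1B, the exchange factor of eEF1A, went different ways. Eef1d (chr15:75894205-75909556), the delta subunit gene, had 7.59 and 7.75 log2 CPM in KO 4 and WT 4, against 8.37, 8.43, 8.34 and 8.50 in KO 1, KO 2, WT 1 and WT 2. Both libraries numbered 4 were far below the rest, with a difference of -0.74 (SE 0.06, limma adjusted p = 1.0e-05), or 0.598-fold. Eef1b2, the alpha subunit gene, had 9.79 and 10.00 log2 CPM in KO 4 and WT 4, against 9.70, 9.69, 9.69 and 9.79 in KO 1, KO 2, WT 1 and WT 2. Its rise of 0.18 (SE 0.06, limma adjusted p = 0.031) rested mostly on WT 4, and the call was lost without KO 1, KO 2 or WT 4 and with median centring. Eef1g, the gamma subunit gene, had 9.92 and 10.09 log2 CPM in KO 4 and WT 4, against 10.10, 10.21, 10.15 and 10.27 in KO 1, KO 2, WT 1 and WT 2. WT 4 and KO 1 nearly met, and the fitted difference of -0.17 (SE 0.07, limma adjusted p = 0.045) became 0.02 with quantile normalization. The Eef1g call was also lost with library totals, with the length and GC correction and without any library except WT 1, and copies in other genes covered 44.2% of its sequence.

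The eIF5A genes were lower, while Tpt1 and the poly(A)-binding protein genes did not go one way. Eif5a had 10.15 and 10.28 log2 CPM in KO 4 and WT 4, against 10.94, 10.98, 10.89 and 11.07 in KO 1, KO 2, WT 1 and WT 2. The rarer paralog Eif5a2 had 4.20 and 4.03 log2 CPM in KO 4 and WT 4, against 4.87, 4.70, 4.86 and 4.70 in KO 1, KO 2, WT 1 and WT 2. Both genes were lower in each library numbered 4, with differences of -0.76 for Eif5a (SE 0.07, limma adjusted p = 2.0e-05) and -0.67 for Eif5a2 (SE 0.09, limma adjusted p = 1.7e-04).

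Tpt1 had 11.04 and 11.41 log2 CPM in KO 4 and WT 4, against 10.73, 10.77, 10.69 and 10.80 in KO 1, KO 2, WT 1 and WT 2. It was higher by 0.48 (SE 0.09, limma adjusted p = 0.0014), and KO 4 stood between WT 4 and the other 4 libraries. Copies in other genes covered 18.7% of the Tpt1 sequence and 54.5% of that of Pabpc4. Pabpc1, a gene of a poly(A)-binding protein, had 11.99 and 12.05 log2 CPM in KO 4 and WT 4, against 12.26, 12.36, 12.13 and 12.31 in KO 1, KO 2, WT 1 and WT 2. Its difference of -0.25 (SE 0.09, limma adjusted p = 0.039) became 0.03 with quantile normalization. That call too was lost with library totals, with the length and GC correction and without any library except WT 1. Pabpc4, a second poly(A)-binding protein gene, had 8.45 and 8.47 log2 CPM in KO 4 and WT 4, against 8.32 to 8.43 in the other 4 libraries. Its difference of 0.09 (SE 0.05) did not pass in limma (adjusted p = 0.16), but was 0.26 with quantile normalization and 0.20 with library totals, both of which passed.

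**Figure D2:**
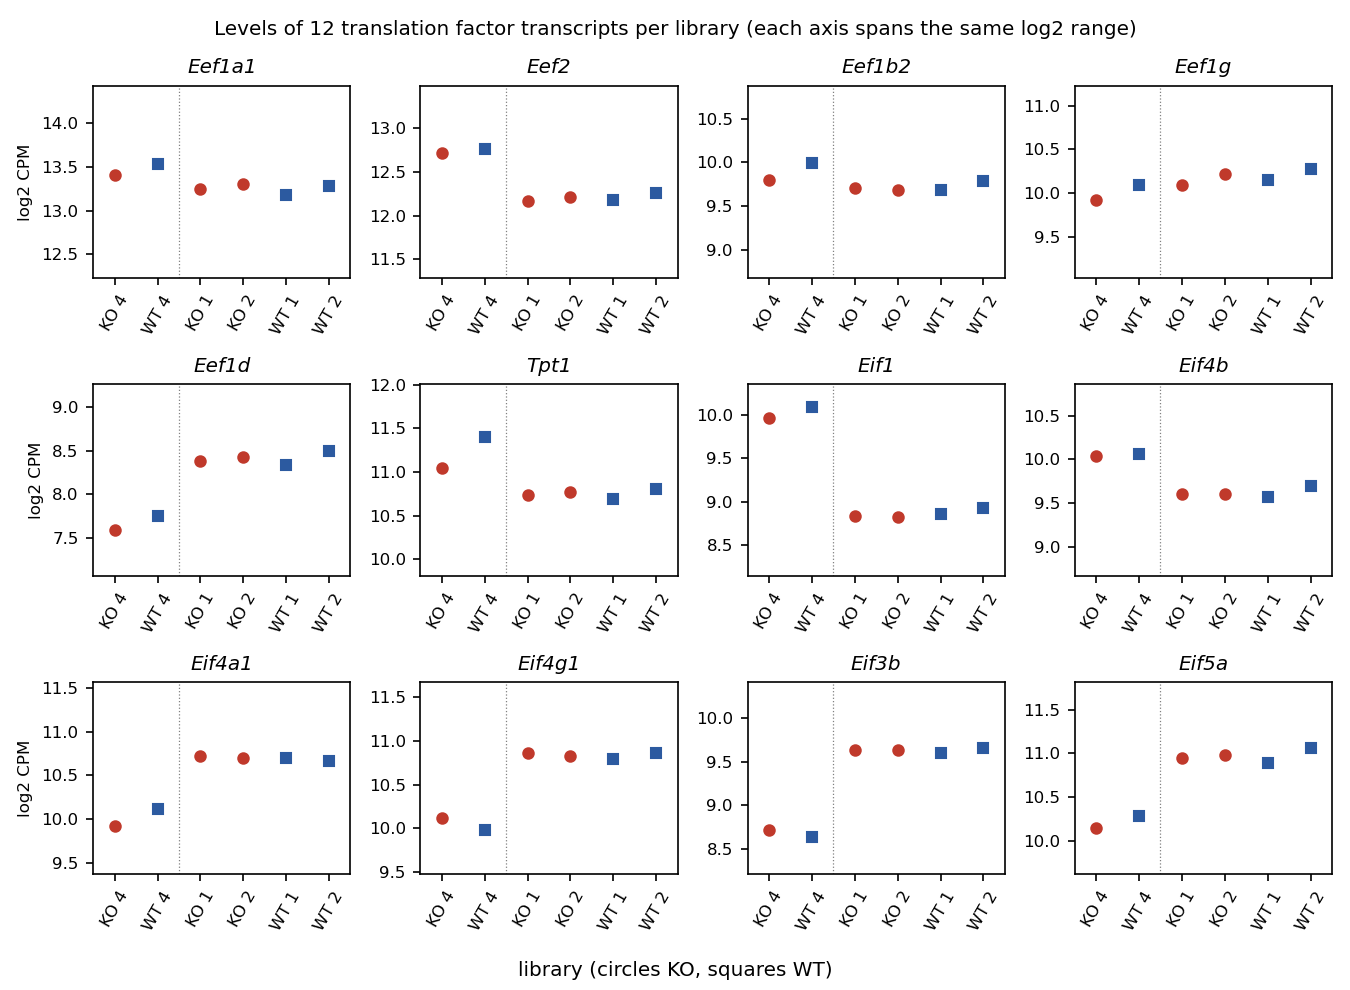
Log2 CPM of 12 members in each library (circles KO, squares WT), with the same log2 span on each vertical axis. A dotted line parts the libraries numbered 4 from the other 4. Eef2, Tpt1, Eif1 and Eif4b sit higher in KO 4 and WT 4, while Eef1d, Eif4a1, Eif4g1, Eif3b and Eif5a sit lower there.

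The largest rise of any member was that of Eif1 (chr11:100319885-100322096), which encodes the factor that keeps the scanning ribosome from settling on a wrong start codon. Eif1 had 9.96 log2 CPM in KO 4 and 10.08 in WT 4, against 8.84, 8.83, 8.86 and 8.93 in KO 1, KO 2, WT 1 and WT 2. The other 4 libraries lay close together and both libraries numbered 4 were above them, by 1.16 (SE 0.05, limma adjusted p = 3.6e-07), or 2.23-fold. Copies in other genes covered 19.2% of the Eif1 sequence. The paralog Eif1b had a small difference of 0.19 (SE 0.07, limma adjusted p = 0.036) that lost its call with median centring and without any library except WT 2. The eIF1A genes parted. Eif1a had 7.71 and 7.86 log2 CPM in KO 4 and WT 4, against 7.37 to 7.60 in the other 4 libraries, and was higher by 0.32 (SE 0.08, limma adjusted p = 0.0047), a call lost without WT 4. Eif1ax had 7.38 and 7.48 log2 CPM in KO 4 and WT 4, against 7.81 to 7.94 in the other 4 libraries. Its groups did not overlap, and the difference was -0.43 (SE 0.06, limma adjusted p = 1.5e-04).

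Of the 3 eIF2 subunit genes, those of the alpha and gamma subunits were lower and that of the beta subunit higher. Eif2s1 (alpha, the subunit phosphorylated under stress) had 7.73 and 7.84 log2 CPM in KO 4 and WT 4, against 8.32 to 8.41 in the other 4 libraries. Eif2s3x (gamma, which binds the initiator tRNA) had 6.89 and 6.96 log2 CPM in KO 4 and WT 4, against 7.51 to 7.55. The differences were -0.56 for Eif2s1 (SE 0.06, limma adjusted p = 2.4e-05) and -0.61 for Eif2s3x (SE 0.05, limma adjusted p = 6.7e-06), both large against the spread inside the groups. Copies in other genes covered 34.6% of the Eif2s3x sequence. Eif2s2 (beta) had 8.59 and 8.74 log2 CPM in KO 4 and WT 4, against 8.25 to 8.55. It was higher by 0.31 (SE 0.08, limma adjusted p = 0.0075), a call lost without WT 4.

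Of the 5 subunit genes of eIF2B, the exchange factor of eIF2, 4 were lower and 1 higher, beside 33.8% and 31.8% of all genes. Eif2b4 had 5.03 log2 CPM in both KO 4 and WT 4, against 5.54 to 5.68 in the other 4 libraries, a difference of -0.57 (SE 0.07, limma adjusted p = 7.7e-05). Eif2b2 was the exception at 0.19 (SE 0.07, limma adjusted p = 0.031), and its call was lost with median centring and without KO 1, WT 2 or WT 4.

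eIF3 was the complex with most genes measured, 14, with a median log2 difference of -0.21. Of these, 2 were higher (14.3%), 8 lower (57.1%) and 4 not called, beside 31.8% higher and 33.8% lower of all genes. Eif3b (chr5:140419328-140443360), a core subunit, had 8.71 log2 CPM in KO 4 and 8.64 in WT 4, against 9.63, 9.64, 9.60 and 9.65 in KO 1, KO 2, WT 1 and WT 2. The other 4 libraries were nearly equal and both libraries numbered 4 were well below them, with a difference of -0.96 (SE 0.05, limma adjusted p = 8.2e-07), or 0.515-fold. The core subunits Eif3c and Eif3a went the other way. Eif3c had 9.52 and 9.58 log2 CPM in KO 4 and WT 4, against 9.14 to 9.28 in the other 4 libraries (difference 0.34, SE 0.05, limma adjusted p = 3.4e-04). Eif3a had 10.53 and 10.49 log2 CPM in KO 4 and WT 4, against 10.22 to 10.34 (difference 0.22, SE 0.06, limma adjusted p = 0.010, lost without WT 4). The core of the complex was thus not moved as a unit.

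Eif3l, a peripheral subunit gene, had 8.74 and 8.80 log2 CPM in KO 4 and WT 4, against 9.40 to 9.47 in the other 4 libraries, a difference of -0.67 (SE 0.05, limma adjusted p = 6.2e-06). Eif3j1 and Eif3j2, copies of the gene of the loosely bound j subunit, had differences of -0.88 (SE 0.07, limma adjusted p = 9.3e-06) and -0.96 (SE 0.11, limma adjusted p = 7.0e-05). Of the 50-base stretches of Eif3j2, 91.8% also occur in other genes, chiefly Eif3j1, so the copies cannot be told apart with certainty. The TOP mRNAs of eIF3 did not pass: Eif3e differed by -0.18, Eif3h by -0.03 and Eif3f by 0.12. Eif3f passed with quantile normalization (0.28, limma adjusted p = 0.0076) and with library totals (0.23, limma adjusted p = 0.019). Eif3e passed with median centring (limma adjusted p = 0.044) and with the length and GC correction (limma adjusted p = 0.037). Eif3h changed sign with quantile normalization, library totals and the length and GC correction.

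In eIF4F and its helpers, 5 of 7 genes were lower (71.4%) and 1 higher (14.3%), beside 33.8% and 31.8% of all genes. Among the 5, Eif4a2, a second helicase gene, had a difference of -0.20 (SE 0.08, limma adjusted p = 0.042). Its call was lost with quantile normalization (-0.021), library totals and the length and GC correction, and without KO 1, KO 2 or KO 4. Eif4g1, the scaffold, had 10.12 and 9.97 log2 CPM in KO 4 and WT 4, against 10.87, 10.83, 10.80 and 10.87 in KO 1, KO 2, WT 1 and WT 2. Eif4a1, the helicase, had 9.92 and 10.11 log2 CPM in KO 4 and WT 4, against 10.72, 10.70, 10.70 and 10.67 in KO 1, KO 2, WT 1 and WT 2. Both libraries numbered 4 fell below every other library, by differences of -0.79 for Eif4g1 (SE 0.06, limma adjusted p = 7.6e-06) and -0.68 for Eif4a1 (SE 0.07, limma adjusted p = 2.8e-05). Copies in other genes covered 28.4% of the Eif4a1 sequence. Eif4b, which stimulates the helicase and is a TOP mRNA, had 10.03 and 10.06 log2 CPM in KO 4 and WT 4, against 9.61, 9.61, 9.57 and 9.70 in KO 1, KO 2, WT 1 and WT 2. It was the only one of the 7 called higher, by 0.43 (SE 0.06, limma adjusted p = 1.8e-04). The cap-binding protein gene Eif4e was lower (-0.44, SE 0.06, limma adjusted p = 1.8e-04). The scaffold paralog Eif4g3 was not called (0.10, SE 0.06, limma adjusted p = 0.15) and changed sign with the length and GC correction (-0.035), but was called higher with quantile normalization (0.20, limma adjusted p = 0.013) and with library totals (0.21, limma adjusted p = 0.0095).

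Of the late initiation factors, Eif5b, which joins the subunits, had 8.01 and 7.96 log2 CPM in KO 4 and WT 4, against 8.46 to 8.67 in the other 4 libraries. It was lower, with no overlap of values (-0.58, SE 0.05, limma adjusted p = 1.4e-05). Exons of Rev1, on the other strand, overlap 16.8% of the Eif5b exonic length. Eif5, which activates GTP hydrolysis by eIF2, was higher by 0.18 (SE 0.06, limma adjusted p = 0.029), a call lost without KO 2 or WT 4. Among 7 relatives of initiation factors none was higher and 5 were lower (71.4%), beside 31.8% and 33.8% of all genes. Eif1ad was the lowest of them (-0.48, SE 0.06, limma adjusted p = 6.0e-05) and Eif2a was not called (0.07). Eif4g2, a relative of eIF4G, was called lower (-0.29) but stood at 0.07 with quantile normalization.

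Of 7 genes of enzymes that modify elongation factors and of their partners, 3 were higher (42.9%) and 2 lower (28.6%), beside 31.8% and 33.8% of all genes. Eef2kmt, the eEF2 lysine methyltransferase gene, had 4.50 and 4.74 log2 CPM in KO 4 and WT 4, against 4.03, 3.94, 3.65 and 3.96 in KO 1, KO 2, WT 1 and WT 2. Its difference of 0.72 (SE 0.13, limma adjusted p = 8.0e-04) was the second largest rise of all members. Exons of Alg1 and Gm15983, on the other strand, overlap 23.0% of the Eef2kmt exonic length. The strand setting of the read counting is not given, so the part of such reads in this rise is not known. Eef2k, which inhibits eEF2 by phosphorylation, was higher by 0.39 (SE 0.07, limma adjusted p = 9.9e-04). Eef1e1, which encodes a scaffold protein of the tRNA synthetase complex, was lower (-0.77, SE 0.07, limma adjusted p = 1.9e-05).

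**Figure D3:**
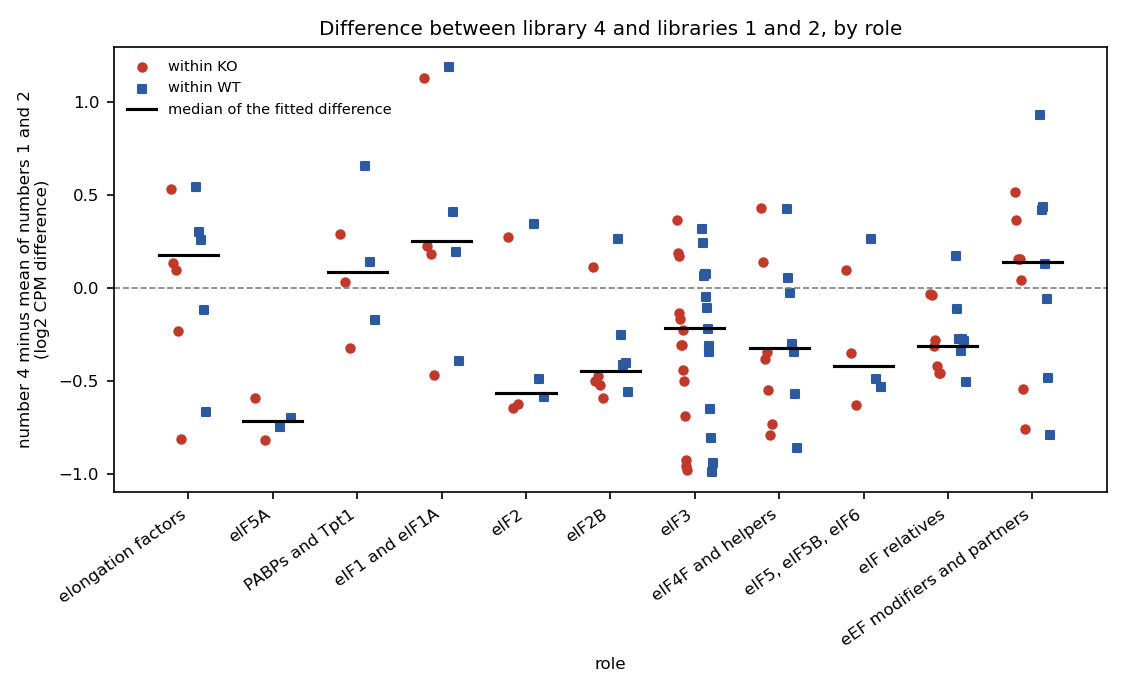
Each point is a member's log2 CPM in the library numbered 4 minus the mean of numbers 1 and 2 within its genotype (circles KO, squares WT), and black lines are medians of the fitted differences by role. Elongation factors lie on both sides of 0 with a median of 0.18. The medians of eIF5A, eIF2, eIF2B, eIF3 and eIF4F lie below 0.

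The 5 elongation factors had a median difference of 0.18 (0.10 within KO and 0.26 within WT, and 0.10 in the fit without WT 4). The 36 initiation complex genes had a median of -0.35 (-0.36 within KO and -0.27 within WT), against 0.00 for all genes. With quantile normalization these medians were 0.02 for elongation factors and -0.18 for initiation complexes. The 11 TOP mRNA members measured, which include the elongation factors, had 4 higher (36.4%), 3 lower (27.3%) and a median of 0.12, so their shares called lay near the 31.8% and 33.8% of all genes. The 32 initiation complex genes that are not TOP mRNAs had 8 higher (25.0%), 22 lower (68.8%) and a median of -0.40. The cytosolic ribosomal proteins, the best-known TOP mRNAs, had 19 of 77 higher (24.7%), 5 lower (6.49%) and a median of 0.06. A further 11 TOP mRNAs had 4 higher (36.4%), 5 lower (45.5%) and a median of -0.11, with the snoRNA host genes Snhg1 (1.83) and Gas5 (1.78) at the top. TOP mRNAs did not all go one way. The 18 cytosolic tRNA synthetases, which supply elongation with charged tRNA, had 11 higher (61.1%), 3 lower (16.7%) and a median of 0.60.

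Some regulators of these factors differed more than any member. Of 11 eIF2 kinase and phosphatase genes, 3 were higher (27.3%) and 5 lower (45.5%), beside 31.8% and 33.8% of all genes. Ppp1r15a (GADD34), the stress-induced subunit that directs dephosphorylation of eIF2, had 7.20 and 7.55 log2 CPM in KO 4 and WT 4, against 3.88, 3.55, 3.97 and 3.79 in KO 1, KO 2, WT 1 and WT 2. The groups were far apart, with a difference of 3.58 that passed in limma. Ppp1ca, a catalytic subunit of protein phosphatase 1, was at -0.75 and the eIF2 kinase gene Eif2ak4 (GCN2) at -0.59.

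Of 14 genes that link mTORC1 and eIF4E-binding proteins to translation, 7 were higher and 3 lower (21.4%). Of all genes tested, 31.8% were higher and 33.8% lower, the background for this list and for those that follow. Pdcd4, an inhibitor of eIF4A, was at 2.33, Mknk1, a kinase of eIF4E, at 1.95 and Eif4ebp1, a repressor of eIF4E, at 1.29. Eif4ebp1 had 8.22 and 8.25 log2 CPM in KO 4 and WT 4, against 6.68, 6.88, 6.70 and 7.53 in KO 1, KO 2, WT 1 and WT 2, so WT 2 stood nearest to the libraries numbered 4. Of 7 termination and recycling factors, 1 was higher (14.3%) and 5 lower (71.4%), with the release factor gene Etf1 at -0.54, the ribosome rescue gene Pelo at -0.48 and the recycling factor gene Denr at -0.43. Of 9 enzymes that modify eIF5A and eEF2, 2 were higher (22.2%) and 4 lower (44.4%). These were led by the eIF5A hydroxylase gene Dohh (-0.48) and by Dph7 (0.44) and Dph3 (-0.34) of the diphthamide pathway.

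The difference between KO and WT was small for every member. None of the 60 members, and none of the 11269 genes tested (0.0%), passed in limma with Benjamini-Hochberg adjustment. Unadjusted, 23 genes (0.204%) and no member had a p under 0.05, and limma voom on recovered reads called none, with 24 unadjusted. These fits had no term for column number, so the split of the libraries numbered 4 counted as spread. The median SE over all genes was 0.20 in the limma fit, against 0.07 with column number as a replicate block. The lack of calls thus does not show that KO and WT were alike. The members' median KO minus WT difference was -0.02, against -0.01 for all genes, and 24 members were higher and 36 lower on average. Of all genes tested, 5311 were higher and 5958 lower. The sign of the members' median was not stable: it was 0.018 with the length and GC correction, 0.013 over numbers 1 and 2 only, 0.078 without KO 4, 0.015 without WT 1 and 0.030 without WT 2. It was -0.075 without KO 1, -0.067 without KO 2 and -0.089 without WT 4. All KO libraries lay below all WT libraries for 1 member, Eif2a, against 1.59% of all genes. All KO libraries lay above all WT libraries for no member, against 2.04% of all genes.

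With column number as a replicate block, limma called 1 gene of all tested (0.00887%), lower in KO, and no member. Unadjusted, 1117 genes (9.91%) and 1 member, Eif5b, then had a p under 0.05. Eif5b was higher in KO by 0.15, 0.15 and 0.06 for numbers 1, 2 and 4, a mean of 0.12 (SE 0.05) with a limma adjusted p of 0.46 in the fit with the replicate block.

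Eif2a, which can carry initiator tRNA in place of eIF2, had 7.37, 7.40 and 7.40 log2 CPM in KO 4, KO 1 and KO 2, against 7.60, 7.40 and 7.46 in WT 4, WT 1 and WT 2. In the fit without the replicate block it had the smallest p of the members, at a mean difference of -0.10 (SE 0.09, limma adjusted p = 1.00). Most of this came from number 4, where KO minus WT was -0.24, against -0.01 for number 1 and -0.07 for number 2. The next smallest p-values in that fit belonged to Eif3f (-0.11), Eef1aknmt, an eEF1A methyltransferase gene (0.08), Eif4g3 (0.08), Eif3k (-0.10) and Eef1b2 (-0.10). Members that differed in the libraries numbered 4 had a larger SE there, so this order favours members that differed little. None of these 6 differences passed in limma.

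Within each column number, the members' KO minus WT medians were 0.04 for number 1, -0.00 for number 2 and -0.08 for number 4, against -0.00, -0.00 and -0.01 for all genes. The 5 elongation factors had medians of 0.02, -0.06 and -0.16, and the 36 initiation complex genes of 0.03, 0.00 and -0.10. The 77 ribosomal proteins had medians of 0.00, -0.05 and -0.20. In these groups the lowest median thus came from number 4 each time, though for elongation factors it was -0.06 with quantile normalization. All 5 elongation factors were lower in KO on average, as were all 77 ribosomal proteins and 5958 of the 11269 genes tested. In all 3 pairs, 2 elongation factors (Eef1g and Eef2) and 34 ribosomal proteins were lower. Over all members, 7 were higher and 10 lower in 3 of 3 pairs, against 15.6% and 17.0% of all genes.

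**Figure D4:**
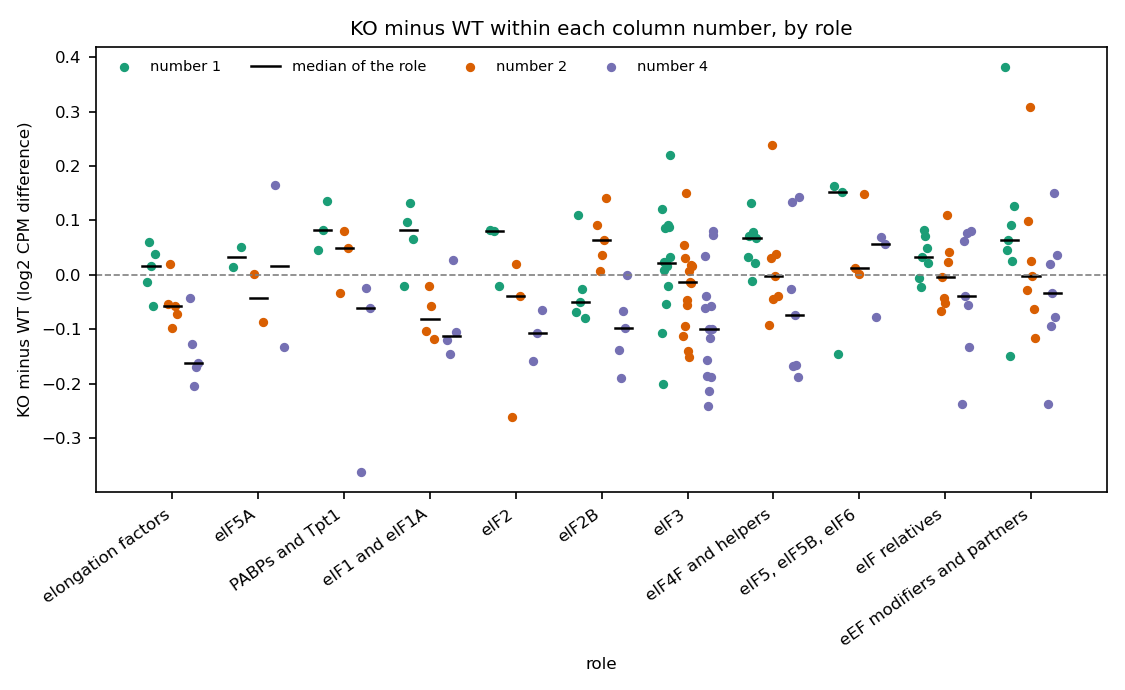
Each point is a member's KO minus WT difference in log2 CPM within 1 column number, for numbers 1, 2 and 4, grouped by role, and black lines are medians. The elongation factor median is 0.02, -0.06 and -0.16 for numbers 1, 2 and 4.

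Whether KO minus WT differed between number 4 and numbers 1 and 2 was tested with an interaction term. It called no gene and no member, and unadjusted 440 genes (3.9%) and 2 members, Eif4a2 and Tpt1, had a p under 0.05. Without WT 1 it called 70 genes higher and 75 lower, and without WT 2 it called 191 higher and 78 lower, none of them members. Eif4a2 had 7.85, 8.20 and 8.26 log2 CPM in KO 4, KO 1 and KO 2, against 8.02, 8.07 and 8.02 in WT 4, WT 1 and WT 2. KO was higher in numbers 1 and 2 (0.13 and 0.24) and lower in number 4 (-0.17), an interaction of -0.35 (SE 0.10, limma adjusted p = 1.00). Tpt1 was lower in KO for number 4 (-0.36), against 0.05 for number 1 and -0.03 for number 2, an interaction of -0.37 (SE 0.14, limma adjusted p = 1.00).

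Over genes, longer transcripts had higher KO minus WT differences. Spearman's rho with the longest annotated transcript was 0.33 over the 60 members and 0.33 over all genes tested, a description only, since genes share the same 6 libraries. The 5 elongation factor genes had a median longest transcript of 1939 bases and the initiation complex genes of 2796 bases, against 3423 bases for all genes. For the difference between the libraries numbered 4 and the others, rho with length was -0.14 over the members and 0.09 over all genes. Summed levels of 7 mitochondrially encoded genes were 3219 and 2970 CPM in KO 4 and WT 4, against 3896 to 5076 CPM in the other 4 libraries. The part of these levels in the differences between column numbers was not tested.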

How the data were processed

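RNA-seq libraries of 3 KO and 3 WT pools were analysed from a deposited table of log2 CPM values made by the authors. Per the submitters' processing notes, Trimmomatic 0.39, STAR 2.7.3a, featureCounts (Subread 1.6.4) and edgeR were named, with build GRCm38. Strand setting and treatment of shared reads are not given there. Every log2 value gave a whole read count (tolerance 0.01), so reads were recovered for read shares, RPKM (exon length from GENCODE) and voom. A gene at 0 reads could have a level of 0.144 to 0.173 CPM from counting error alone.

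The tests used limma 3.58.1 (trend) in R 4.3.3 on genes that reached log2 CPM 0 in 3 or more libraries (183 left out, all 60 members kept). The fits were tested on simulated data. Members and lists were chosen with earlier results of these data known. Named genes were all elongation, eIF5A, PABP and Tpt1 members, the extremes of each role and of all members, the 6 smallest p for KO minus WT and up to 3 genes per list, of which 1 is not reported here. KO and WT libraries of 1 number deviated together from their genotype mean (r = 0.744, 0.784 and 0.921 for numbers 1, 2 and 4). Across numbers, r was 0.617 for KO 2 with WT 1 and 0.687 for KO 1 with WT 2. That mean includes the outlying number 4, which pushes libraries 1 and 2 the same way. These values thus cannot show whether numbers 1 and 2 mark pairs. The main KO minus WT fit did not treat the numbers as pairs. The replicate block and the differences within each column number did, though no label says that they are. Alternatives changed the filter, prior count, scaling, variance model, length and GC correction, and left out each library.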

Additional observations from a re-analysis of the deposited data

How the results depend on the processing

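The counts and medians rest on 6 libraries, and the contrast of number 4 has 1 such library per genotype. A fit without KO 4 or WT 4 assumes that the lone library varies like the others. With the replicate block, KO minus WT called 1 gene lower, alone, with the length and GC correction and with voom (which used the authors' library sizes; TMM factors were not run). It changed no other call. Leaving out 1 library gave 7 (without WT 4) to 14 members higher in the libraries numbered 4, and 0 to 191 interaction calls higher and 0 to 78 lower. Of 49 member calls, 42 kept direction and call with quantile normalization, 44 with library totals, 46 with median centring, 46 with the length and GC correction, and 38 without WT 4.

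With quantile normalization, the medians for the libraries numbered 4 were 0.020 for elongation factors, -0.18 for initiation complexes and -0.078 for all members, and the elongation factors' KO minus WT median for number 4 was -0.056. With library totals, chosen after seeing the data, the medians were 0.29, -0.24 and -0.12. Without 1 library they ranged from 0.10 to 0.26, from -0.36 to -0.27 and from -0.31 to -0.20. Quantile normalization reversed Eef1akmt4 (-0.051), Eef1aknmt (0.040), Eif3h (0.15), Eif3g (0.12), Eef1g (0.020), Pabpc1 (0.033) and Eif4g2 (0.074). Library totals reversed Eef1aknmt (0.10), Eif3h (0.084), Eif3g (0.069) and Eif2d (0.038). The length and GC correction reversed Eif4g3 (-0.035), Eif3h (0.024) and Eif3g (0.0096). Without 1 library, Eif2a ranged from -0.030 to 0.17, Eef1aknmt from -0.061 to 0.045, Eif3h from -0.13 to 0.075 and Eif3g from -0.16 to 0.078, all reversing. C and T runs stood at the start itself in 4.17% of members and 3.01% of all promoters, and within 20 bases in 43.8% and 53.3%. The causes were not tested.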
